A study of Mus musculus with 8 samples.

Results

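Small A islands are short stretches of active-type chromatin that stood alone inside inactive-type chromatin in untreated mouse embryonic stem cells. They were chosen by the compartment score of the Setdb1 WT library, as runs of 1 to 3 adjacent autosomal bins of 100 kb with a score above 0, with at least 3 adjacent bins below 0 on each side. The rule gave 236 islands, 122 of 1 bin, 68 of 2 bins and 46 of 3 bins. They held 396 of the 23992 bins scored in that library (1.65%) and 3.71% of its 10662 A bins. All 19 autosomes had islands, between 7 and 24 each, and every member bin was scored in all 8 libraries. Because the islands were selected on Setdb1 WT, its own values are a description here, and the other 7 libraries are where the islands were followed.

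In Hi-C data, contact maps separate each chromosome into a compartment A, which is rich in genes and usually transcribed, and a compartment B, which lies mostly at the nuclear lamina and carries methylated histone H3 lysine 9. G9a and GLP place the dimethyl mark over broad B regions, SETDB1 places the trimethyl mark at retroelements and some genes, and SUV39H1 and SUV39H2 place it at pericentromeric repeats. A B domain is seldom uniform, and short active segments can lie within it around a transcribed gene.

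The study asked how loss of these enzymes changes genome organisation, in 8 groups. Each group had 1 file here, called a library below, and whether it holds 1 repeat or pooled repeats is not given in the sources used here. Setdb1 WT was the #33-6 Setdb1 conditional knockout stem cell line without treatment. Setdb1 WT + UNC was that line under 2 µM UNC0642, an inhibitor of G9a and GLP, for 3 days. Setdb1 KO was the line given 800 nM 4-hydroxytamoxifen for 5 days, which triggers the deletion, and Setdb1 KO + UNC had 2 days of 800 nM 4-hydroxytamoxifen and then 3 days of 2 µM UNC0642. Suv39h WT was the ADF1-26 wild-type line and Suv39h DKO the ADF157 line without SUV39H1 and SUV39H2, each untreated or under 2 µM UNC0642 for 3 days. ADF1-26 and ADF157 are separate lines, so line and genotype cannot be told apart in that comparison. The files hold the score alone. The study lists read numbers and correlations for its Hi-C repeats, which are not used here because the files do not say which repeats they hold, so the depth behind a bin's value is unknown here.

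The islands were small in score as well as in size. Member bins had a median of 0.00658 in Setdb1 WT against 0.0268 for the other A bins, and 162 of the 396 (40.9%) lay under 0.005, as did 9.05% of the other A bins. The lowest members scored 2.32e-05 and 4.71e-05, and the flanking bins nearest to the threshold scored -1.39e-05 and -2.94e-05. A further 28 runs of 4 bins met every other part of the rule. The median score of the 1366 flanking bins was -0.0121. From the edge of an island, the nearer A bin or gap was a median of 6 B bins away and at most 58, and 71 islands had at least 10 B bins on both sides.

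Most islands held a gene start, and the windows before 6 gene starts are printed below. They are the 250 bases before the RefSeq start nearest to the GENCODE start of a gene in 6 of the islands described below, on GRCm38.p6, read 5′ to 3′ on the strand of the gene, with each CpG dinucleotide (letters CG) in capitals. Smarcad1 and Zfp42 lie in islands with a positive mean in all 8 libraries. Hdac2 and Olfr835 lie in islands named for changes shared by 2 pairs of libraries, and Ell2 in one named for its change in 1 pair. Pax6 is a developmental regulator. The windows are chr6:65042341-65042590 on the plus strand, chr8:43307010-43307259 on the minus strand, chr10:36974294-36974543, chr13:75707234-75707483, chr2:105668646-105668895 and chr9:19034875-19035124, the last 4 on the plus strand, in the order in which they are printed.
Smarcad1: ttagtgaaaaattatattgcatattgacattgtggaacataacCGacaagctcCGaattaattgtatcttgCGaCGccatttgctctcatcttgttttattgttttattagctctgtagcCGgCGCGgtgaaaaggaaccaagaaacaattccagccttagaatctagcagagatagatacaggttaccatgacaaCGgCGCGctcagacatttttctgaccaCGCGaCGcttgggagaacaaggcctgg
Zfp42: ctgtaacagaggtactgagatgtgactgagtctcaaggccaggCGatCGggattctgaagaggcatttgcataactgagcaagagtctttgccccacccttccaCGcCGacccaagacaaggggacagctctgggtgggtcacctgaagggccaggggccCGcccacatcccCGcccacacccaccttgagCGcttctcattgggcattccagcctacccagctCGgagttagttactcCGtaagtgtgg
Hdac2: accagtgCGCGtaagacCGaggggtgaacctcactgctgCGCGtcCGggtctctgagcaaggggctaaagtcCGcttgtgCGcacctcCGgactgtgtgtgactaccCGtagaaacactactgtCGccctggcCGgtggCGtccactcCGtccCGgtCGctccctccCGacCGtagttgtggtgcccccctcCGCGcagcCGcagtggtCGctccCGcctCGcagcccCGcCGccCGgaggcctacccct
Ell2: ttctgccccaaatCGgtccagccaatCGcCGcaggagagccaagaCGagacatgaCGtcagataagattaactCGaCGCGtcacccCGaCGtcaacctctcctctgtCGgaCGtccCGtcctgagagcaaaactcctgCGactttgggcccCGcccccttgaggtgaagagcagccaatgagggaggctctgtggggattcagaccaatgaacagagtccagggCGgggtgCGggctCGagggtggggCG
Pax6: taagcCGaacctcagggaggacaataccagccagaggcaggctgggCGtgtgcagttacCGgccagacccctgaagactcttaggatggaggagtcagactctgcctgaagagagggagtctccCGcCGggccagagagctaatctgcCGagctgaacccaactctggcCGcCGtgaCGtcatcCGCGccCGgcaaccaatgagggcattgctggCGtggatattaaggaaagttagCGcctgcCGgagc
Olfr835: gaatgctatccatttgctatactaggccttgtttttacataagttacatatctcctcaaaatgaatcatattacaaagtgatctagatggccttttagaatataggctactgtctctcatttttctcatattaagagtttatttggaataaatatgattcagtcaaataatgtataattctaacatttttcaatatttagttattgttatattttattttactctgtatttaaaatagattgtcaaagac
The RefSeq start used lay 0 to 29 bases from the GENCODE start for 4 of the genes, 727 bases away for Ell2 and 2390 for Olfr835, so the last window may not be the promoter of that gene. The Hdac2 window held 27 CpG dinucleotides, that of Ell2 19, that of Pax6 15, that of Smarcad1 13 and that of Zfp42 9, whereas the olfactory receptor window held 0. Over all 31396 listed windows on the autosomes the median was 6 CpG, and 92.4% held at least 1. The 633 windows that started in island bins had a median of 11 CpG, against 3 in the 1159 windows of the flanking bins, 8 in other A bins and 2 in other B bins. At least 10 CpG were found in 54.0% of the island windows, 46.2% of those in other A bins, 38.3% of all listed windows and 19.8% of the flanking windows.

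The base composition and gene content of whole islands were described next, since the rule used neither. Island bins had a median GC content of 41.5%, between the 40.5% of their flanking bins and the 44.8% of other A bins, and bins of B chromatin away from islands had 39.0%. GC content was higher in the island than in its own 6 flanking bins for 173 of 236 islands (73.3%), with a median difference of 0.738 percentage points. CpG dinucleotides per kb were higher for 208 islands (88.1%), with medians of 9.15 in island bins, 6.92 in flanking bins and 11.1 in other A bins. The share of bases masked as repeats was lower than in the flanks for 181 islands (76.7%).

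**Figure D1:**
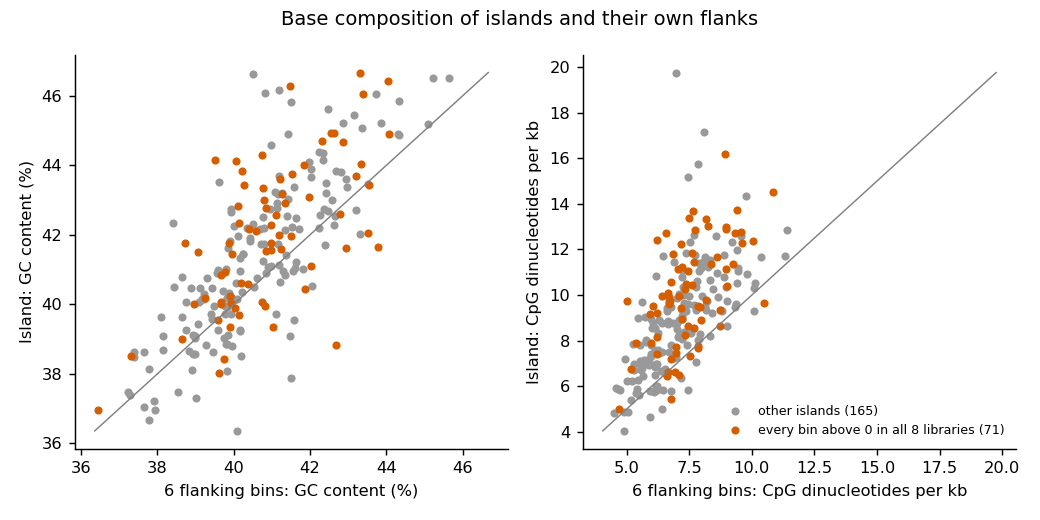
GC content (left) and CpG dinucleotides per kb (right) of each of the 236 islands against the mean of its own 6 flanking bins, with the line of equality. Points above the line, 173 islands for GC and 208 for CpG, are richer than their flanks, and orange marks the 71 islands with every bin above 0 in all 8 libraries.

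Protein-coding genes started in 284 of the 396 island bins (71.7%), against 31.7% of flanking bins, 66.2% of other A bins and 20.9% of other B bins. There were 470 such starts, or 1.19 per bin, against 0.494 per bin in the flanks and 1.48 in other A bins. At least 1 start lay in 197 islands, exactly 1 in 87, and 39 islands had none. Of those 39, 20 overlapped the body of a coding gene and 19 overlapped none.

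Genes on lists of families and functions were counted separately. Of 1128 olfactory receptor genes, which are expressed in sensory neurons, 14 started in an island (1.24%), and of 329 vomeronasal receptor genes 2 did (0.608%), against 470 of 20807 coding genes (2.26%). Zinc finger genes (10 of 458, 2.18%) and solute carriers (9 of 372, 2.42%) had shares near that of all genes. Single genes came from the lists of 96 ribosomal protein genes (Rps27a), 60 serpins (Serpini1), 102 cytochrome P450 genes (Cyp39a1), 20 core pluripotency genes (Zfp42) and 24 lineage regulators silent in stem cells (Pax6). None came from the lists of 67 protocadherins, 113 keratin genes, 64 defensins, 19 germline genes, 28 cell adhesion and synapse genes and 12 H3K9 methyltransferase and HP1 genes. These lists are too short for counts of 0 or 1 to be told from the share of all coding genes.

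Outside the library that chose them, the median island still scored above the bins around it. The median island lay at 0.00616 in Setdb1 WT, between bins at -0.00838 and -0.00885 on either side. In the other libraries the median island score ran from 0.00366 in Setdb1 WT + UNC to 0.00594 in Setdb1 KO + UNC, and bins 300 kb away had medians from -0.0154 to -0.0132. The local contrast, which is the mean score of an island minus the mean of its 6 flanking bins and is not affected by how a chromosome is centred, was above 0 for 226 to 235 of the 236 islands in each of the 7 libraries. The rule fixed this contrast above 0 in Setdb1 WT, whose scores correlated with those of the 7 libraries at 0.967 to 0.989 over all bins. These counts are therefore not independent of the choice of islands, and the share for other bins was not worked out.

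**Figure D2:**
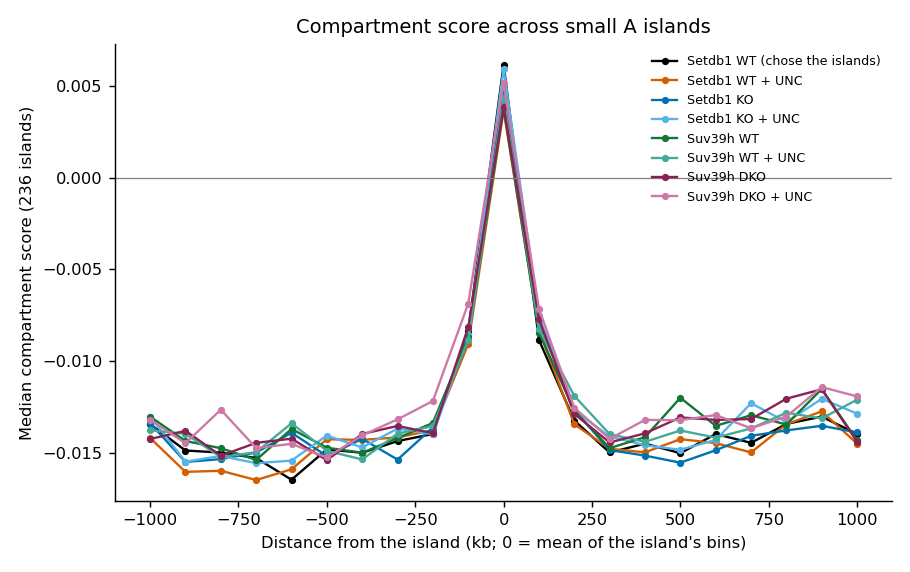
Median compartment score over the 236 islands (centre point, mean of the bins of each island) and at 100-kb steps up to 1000 kb on either side, 1 line per library. All 8 medians are above 0 at the island and below 0 at every step outside it, and the black line is the library that chose the islands.

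By median local contrast the 3 other libraries of the Setdb1 line and the 4 Suv39h libraries were ordered as follows. The highest was 0.0191 for Setdb1 KO + UNC (95% order-statistic interval 0.0164 to 0.0214), followed by 0.0178 for Setdb1 KO (0.0164 to 0.0186) and 0.0168 for Setdb1 WT + UNC (0.0149 to 0.0178). The Suv39h libraries lay at 0.0162 (Suv39h WT + UNC), 0.0157 (Suv39h WT), 0.0156 (Suv39h DKO + UNC) and 0.0151 (Suv39h DKO). Every neighbouring pair in this order had overlapping intervals, which cover the spread between islands and not between libraries. Setdb1 WT itself had 0.0199, a value that its role in the choice raised by construction. With islands chosen in Suv39h WT the order turned in part. Setdb1 KO + UNC then had 0.0194 and Setdb1 KO 0.0184. Setdb1 WT + UNC had 0.0175, below Suv39h WT + UNC (0.0181) and Suv39h DKO + UNC (0.018), and Suv39h DKO had 0.0175 as well.

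The sign of the score, which started nearer to 0 than the contrast, was followed next. Of the 396 member bins, 332 stayed above 0 in Setdb1 KO + UNC (83.8%, 95% Wilson interval 79.9 to 87.1%), where 96.2% of all A bins of Setdb1 WT did. In Setdb1 KO 318 stayed above 0 (80.3%, 76.1 to 83.9%), beside 96.6% of all A bins. In Setdb1 WT + UNC 290 did (73.2%, 68.7 to 77.4%), beside 94.5%.

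In the Suv39h lines the counts lay on both sides of that of Setdb1 WT + UNC and below those of the Setdb1 KO libraries. Suv39h WT had 282 member bins above 0 (71.2%, 66.6 to 75.5%) beside 94.2% of all A bins, and Suv39h WT + UNC had 293 (74.0%, 69.5 to 78.1%) beside 94.6%. Suv39h DKO had 280 (70.7%, 66.0 to 75.0%) beside 94.8%, and Suv39h DKO + UNC had 295 (74.5%, 70.0 to 78.5%) beside 95%. In every library the share of island bins was below that of A bins in general. The order of the lines depended on the library that chose the islands, since islands chosen in Suv39h WT kept 72.1% of their bins above 0 in Setdb1 KO and 77.4% in Suv39h DKO. The mirror set, 178 bins of 114 B islands inside A chromatin chosen by the same rule with the signs turned, stayed below 0 in 48.9% to 71.3% of its bins.

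**Figure D3:**
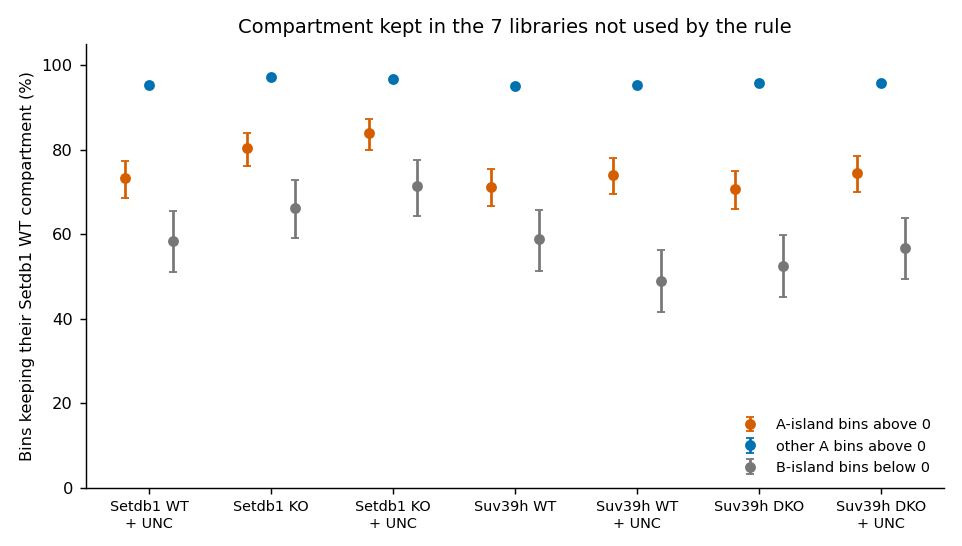
Share of bins that kept their Setdb1 WT compartment in each of the 7 other libraries, for the 396 bins of A islands (orange), the 10266 other A bins (blue) and the bins of B islands (grey), with 95% Wilson intervals. A-island bins lie between 70.7% and 83.8%, below the other A bins at 95.1% to 97.2%.

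Since island bins started nearer to 0 than other A bins, both were also compared within ranges of the Setdb1 WT score. Among bins under 0.005 in Setdb1 WT, 50.6% (Suv39h DKO) to 67.3% (Setdb1 KO + UNC) of the 162 island bins stayed above 0, against 67.7% to 73.8% of the 929 other A bins. Between 0.005 and 0.01 the shares were 68.9% to 95.1% of 103 island bins and 85.5% to 96.1% of 926 others. From 0.02 upwards, 97.8% to 100% of the 46 island bins and 99.7% to 100% of the others stayed above 0.

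**Figure D4:**
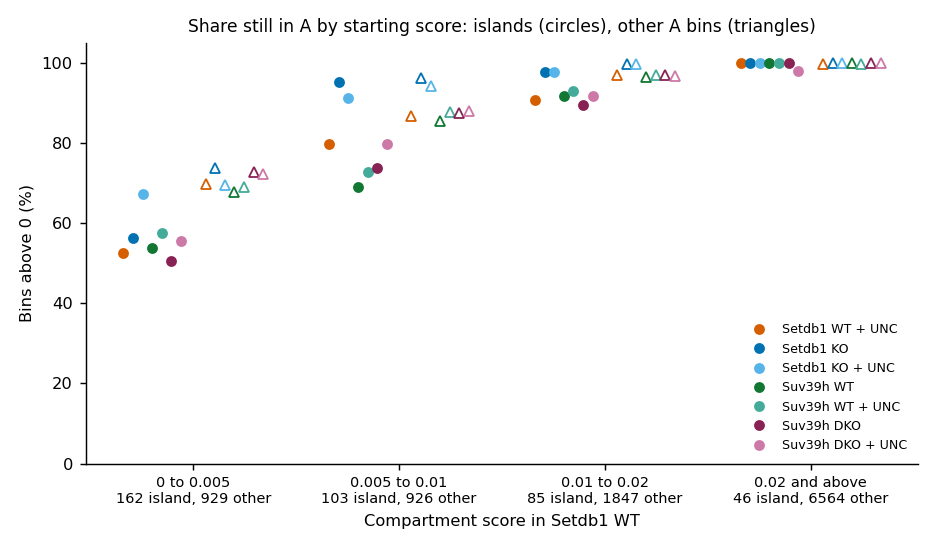
Share of bins above 0 in each of the 7 other libraries by the score the bins had in Setdb1 WT, with filled circles for island bins and open triangles for other A bins, coloured by library. Under 0.005 the islands lie at 50.6% to 67.3% and the other A bins at 67.7% to 73.8%, and from 0.02 upwards both lie at or above 97.8%.

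Losses of whole islands were also counted by island size. Islands with no bin left above 0 made up 31.1% (Setdb1 KO + UNC) to 50.0% (Suv39h DKO) of the 122 islands of 1 bin, 2.94% to 13.2% of those of 2 bins and 0% to 6.52% of those of 3 bins. An island of several bins is counted as lost only when all of them are, so the shares are not on equal terms. Between 11 and 33 islands per library had become part of a run of 4 or more A bins, fewest in Setdb1 KO and Setdb1 KO + UNC and most in Suv39h DKO + UNC, where 13.8% of the flanking bins were above 0 against 5.56% in Setdb1 KO. Over all bins the A share was 46.3% in Suv39h DKO + UNC and 44.6% in Setdb1 KO. The rule held the flanks below 0 in Setdb1 WT, the line of the KO libraries, so these counts are not independent of the choice.

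Across all libraries, 71 islands (30.1%) had every bin above 0 in all 8, and 112 (47.5%) had a mean above 0 in all 8. Of the single bins, 195 of 396 (49.2%) were above 0 in all 8 libraries, against 89.0% of other A bins, and 14 member bins were below 0 in all 7 other libraries. Islands of the first kind had a median Setdb1 WT score of 0.0103 and a coding start in 64 of 71, and the 31 islands with every bin in A in at most 1 other library had a median of 0.00262 and a coding start in 22 of 31. GC content exceeded that of the flanks in 54 of the 71 and in 15 of the 31.

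The 5 islands highest in the mean over the 7 libraries held 1 to 3 coding starts each. At chr6:65000001-65100000 the bin with the start of Smarcad1, a chromatin remodelling ATPase, scored 0.0377 (WT), 0.0261 (WT + UNC), 0.0315 (KO) and 0.0396 (KO + UNC) in the Setdb1 line. In the Suv39h lines it scored 0.0338 (WT), 0.031 (WT + UNC), 0.0317 (DKO) and 0.0341 (DKO + UNC). It was the highest island in the mean over the 7 libraries (0.0325), and its local contrast lay between 0.0422 and 0.0507. The 3 bins at chr8:80700001-81000000, with Smarca5, the ATPase of ISWI remodellers, and Gab1, a signalling adaptor, had means of 0.0287 (WT), 0.0231 (WT + UNC), 0.0291 (KO) and 0.0311 (KO + UNC) in the Setdb1 line. The Suv39h lines had 0.0212 (WT), 0.0186 (WT + UNC), 0.0189 (DKO) and 0.0197 (DKO + UNC) there, all below the 4 libraries of the Setdb1 line.

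Tle4, a Groucho-type corepressor, was the only coding start of the island at chr19:14400001-14700000, which scored between 0.0211 and 0.0279 in the 8 libraries with a local contrast of 0.0515 to 0.0555. The bin of Carnmt1, Nmrk1 and Ostf1 at chr19:18600001-18700000 ran from 0.0166 in Suv39h WT + UNC to 0.0334 in Setdb1 KO + UNC. The island of Zfp654 and Cggbp1 at chr16:64700001-64900000 ran from 0.0176 in Setdb1 WT + UNC to 0.0268 in Suv39h DKO. No library of these 5 islands came near 0.

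Zfp42 encodes REX1, a zinc finger protein used as a marker of naive pluripotency, and it shared the island at chr8:43100001-43400000 with Triml1 and Triml2. Its mean was 0.0124 (WT), 0.00313 (WT + UNC), 0.0122 (KO) and 0.0156 (KO + UNC) in the Setdb1 line, and 0.0109 (WT), 0.00815 (WT + UNC), 0.0111 (DKO) and 0.0144 (DKO + UNC) in the Suv39h lines. It was positive throughout and lowest in Setdb1 WT + UNC. Apaf1, the scaffold of the apoptosome, Tmpo, a lamina-associated protein, Slc25a3, the mitochondrial phosphate carrier, and Ikbip shared chr10:91000001-91300000, which lay between 0.0148 and 0.0224. The island of Rps27a, Rtn4 and 3 other genes at chr11:29500001-29800000 ran from 0.00169 in Setdb1 WT + UNC to 0.015 in Setdb1 KO + UNC.

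Receptor genes were found in islands of very different strength. The island at chr19:11800001-12100000 held 8 olfactory receptor starts beside Osbp, Patl1 and Stx3, and its mean ran from 0.00908 in Suv39h WT + UNC to 0.0208 in Setdb1 KO + UNC. Olfr466, Olfr465-ps1, Zfp369 and 3 other genes shared chr13:65100001-65300000, with 0.0231 (WT), 0.0114 (WT + UNC), 0.0284 (KO) and 0.027 (KO + UNC) in the Setdb1 line and 0.000162 to 0.00599 in the 4 Suv39h libraries. The single-bin islands of Vmn1r76 and Vmn1r71 on chromosome 7 had means over the 7 libraries of -0.00225 and -0.00498. Serpini1, which encodes neuroserpin, and Pdcd10 shared an island at 0.00143 to 0.00975, and Cyp39a1, Slc25a27, Tdrd6 and 3 other genes shared one at 0.00356 to 0.0165.

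Of the 5 islands lowest in the mean over the 7 libraries, 1 was in B in all 7, and 4 were in A in both Setdb1 KO libraries and in B in the other 5. The bin at chr12:68500001-68600000, with no coding gene, had 0.000559 in Setdb1 WT and ran from -0.0334 to -0.00613 in the other 7. Plod2, a lysyl hydroxylase of collagen, marked the bin at chr9:92500001-92600000, which had 0.00305 (WT), -0.0214 (WT + UNC), 0.00541 (KO) and 0.00165 (KO + UNC) in the Setdb1 line. The Suv39h lines had -0.0209 (WT), -0.026 (WT + UNC), -0.0251 (DKO) and -0.0203 (DKO + UNC). Of the 7 libraries that did not choose it, both KO libraries lay above 0 and the other 5 below.

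In 24 islands (10.2%) the mean was above 0 in Setdb1 KO and Setdb1 KO + UNC and below 0 in all 4 Suv39h libraries, and in 22 of these 24 it was also below 0 in Setdb1 WT + UNC. The opposite division, above 0 in all Suv39h libraries and below 0 in both Setdb1 KO libraries, was found in 8 islands. By bins, the first division held for 36 of the 396 members (9.09%), 1.11% of other A bins and 1.03% of all bins, and the opposite one for 14 members (3.54%), 0.526% and 1.08%. The selection in the Setdb1 line favours the first kind. Across member bins, scores in Setdb1 WT + UNC had Pearson correlations of 0.813 to 0.866 with the 4 Suv39h libraries and of 0.637 to 0.742 with the 3 others of its own line, whereas Setdb1 KO and Setdb1 WT had 0.888. These coefficients are descriptions over 396 bins that share chromosomes and were chosen on a narrow range of score. Over all bins scored in the 8 libraries, Setdb1 WT + UNC had 0.967 to 0.978 with its own line and 0.973 to 0.978 with the Suv39h libraries.

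**Figure D5:**
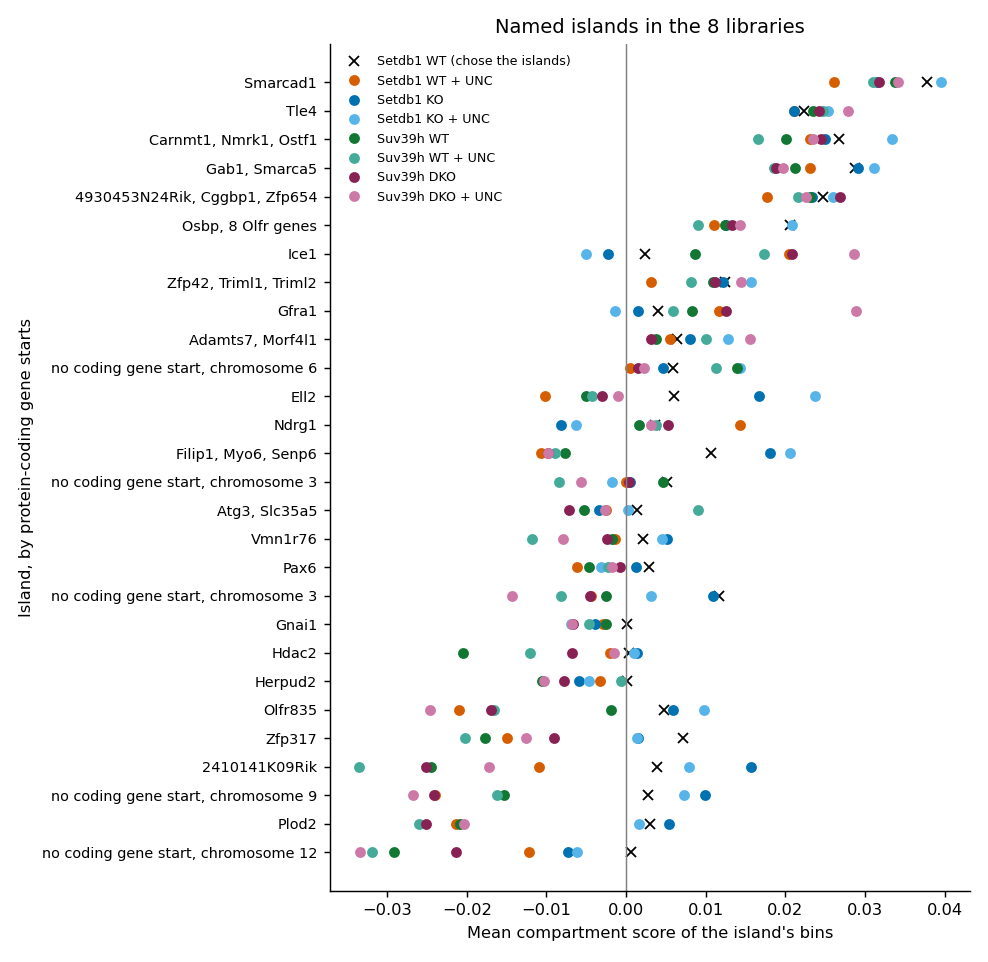
Mean compartment score of the bins of 28 named islands in the 8 libraries, ordered by the mean over the 7 libraries that did not choose them and labelled by up to 3 protein-coding genes that start there, with crosses for Setdb1 WT. The uppermost rows are above 0 in every library, and in the rows of Plod2, Zfp317, Ell2 and Filip1 the blue points (Setdb1 KO and Setdb1 KO + UNC) are above 0 and the Suv39h and Setdb1 WT + UNC points below.

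Whether inhibition of G9a and GLP moved the islands was asked in the 3 pairs that leave out Setdb1 WT. The share of member bins above 0 went from 80.3% to 83.8% in Setdb1 KO, from 71.2% to 74.0% in Suv39h WT and from 70.7% to 74.5% in Suv39h DKO. The Setdb1 KO pair also differs in 4-hydroxytamoxifen, given for 5 days without UNC0642 and for 2 days before it. The direction in the Suv39h pairs depended on centring, checked over the same 396 bins after seeing the data. The share fell from 88.1% to 86.1% in Suv39h WT when the mean that centring removed from each chromosome (worked out for an eigenvector of unit length) was added back, and from 47.7% to 44.4% in Suv39h DKO when it was subtracted once more. The crossings behind this were 33 bins into A and 19 into B, 33 and 22, and 27 and 12. The shift in score was small, with median changes over member bins of 0.00121, 0.000199 and 0.000816 against 4e-06, 1.7e-05 and 8.8e-05 over all bins. The flanking bins also moved up, by medians of 0.000235, 0.000157 and 0.000734, and the local contrast rose by medians of 0.000698, 0.000138 and 0.000215, in 140, 120 and 125 of the 236 islands.

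Few member bins moved by 0.01 or more under UNC0642. In Setdb1 KO 7 rose (1.77%, with 0.755% of all bins) and 2 fell (0.505%, with 0.934% of all bins). In Suv39h WT 7 rose (1.77%, beside 2.26%) and 12 fell (3.03%, beside 2.53%). In Suv39h DKO 10 rose (2.53%, beside 3.07%) and 4 fell (1.01%, beside 3.69%). That last direction depended on how a chromosome is centred. With the removed mean added back, 21 rose and 3 fell, and with it subtracted once more 7 rose and 14 fell.

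No bin passed the test for UNC0642. In limma over the 7 libraries with background as a block, 0 of 23972 bins were called at an adjusted p under 0.05 (0% of all bins), with 0.879 as the lowest adjusted p. Without adjustment, 1336 bins had p under 0.05, 25 of them members (6.31% of members, with 5.57% of all bins, 16 up and 9 down). All 3 pairs rose in 67 member bins (16.9%, with 13.4% of all bins) and all 3 fell in 33 (8.33%, with 13.0% of all bins). The fit had 2 residual degrees of freedom, and 3 pairs are the only replication the design gives.

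The fitted changes of the largest shared rises and falls were under 0.01. The bin of Morf4l1, a chromodomain protein of histone acetyltransferase complexes, and Adamts7, a secreted protease, at chr9:90100001-90200000 went from 0.00804 to 0.0127 in Setdb1 KO, from 0.00373 to 0.01 in Suv39h WT and from 0.00316 to 0.0156 in Suv39h DKO, a fitted change of 0.00781 ± 0.00235 (SE; limma adjusted p = 0.879). The bin of Atg3, a conjugating enzyme of autophagy, and Slc35a5 at chr16:45100001-45200000 had 0.00749 ± 0.00262. Both falls were in bins of chromosome 3 with no coding start, at chr3:3300001-3400000 (-0.00777 ± 0.00215) and chr3:17700001-17800000 (-0.00716 ± 0.00256), and none of the 4 passed the test (limma adjusted p = 0.879 for each).

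Loss of SUV39H1 and SUV39H2 was compared in 2 pairs, untreated and under UNC0642, each between the ADF157 and ADF1-26 lines. The share above 0 went from 71.2% to 70.7% without the inhibitor and from 74.0% to 74.5% with it. Over the same bins, with the removed mean added back, the pairs went from 88.1% to 88.6% and from 86.1% to 90.7%, and with it subtracted once more from 42.7% to 47.7% and from 45.2% to 44.4%. Rises of at least 0.01 were seen in 15 member bins without UNC0642 (3.79%, beside 3.65% of all bins) and in 19 with it (4.80%, beside 2.98%). Falls were seen in 9 (2.27%, beside 3.75%) and 13 (3.28%, beside 3.86%). Under UNC0642 the balance turned with centring, from 33 rises and 8 falls with the removed mean added back to 11 and 24 with it subtracted once more. Flanking bins rose by medians of 0.000628 and 0.00115 and the local contrast changed by medians of 2.82e-05 and -0.000246.

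The fit called 0 of 23972 bins for this contrast as well (0% of all bins; lowest limma adjusted p = 0.285), and 2690 bins had p under 0.05 without adjustment, 55 of them members (13.9% of members, with 11.2% of all bins, 36 up and 19 down). Hdac2, a histone deacetylase, marked the bin at chr10:36900001-37000000 with one of the largest rises shared by both pairs. Its score was 0.0003 (WT), -0.00202 (WT + UNC), 0.00135 (KO) and 0.00101 (KO + UNC) in the Setdb1 line, and -0.0204 (WT), -0.0121 (WT + UNC), -0.00677 (DKO) and -0.00154 (DKO + UNC) in the Suv39h lines. Every Suv39h library was below 0, the DKO ones nearest to it, with a fitted difference of 0.0121 ± 0.00293 (SE; limma adjusted p = 0.285).

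Gfra1, a receptor of the neurotrophic factor GDNF, lay in a bin at chr19:58400001-58500000 that had 0.00823 and 0.00593 in the Suv39h WT libraries and 0.0126 and 0.0288 in the DKO libraries, untreated and under UNC0642, a difference of 0.0136 ± 0.00441 (limma adjusted p = 0.331). The bin of Olfr835 at chr9:19000001-19100000 had -0.00192 and -0.0166 in Suv39h WT and -0.017 and -0.0247 in DKO, a difference of -0.0116 ± 0.00402 (limma adjusted p = 0.345). The bin at chr6:58600001-58700000, inside the body of Abcg2, a drug efflux transporter, had 0.0139 and 0.0113 against 0.00153 and 0.00229, a difference of -0.0107 ± 0.00329 (limma adjusted p = 0.319). None of these passed the test.

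For SETDB1, the comparison that leaves out Setdb1 WT sets both KO libraries of the line against Setdb1 WT + UNC. It rests on the 1 library labelled Setdb1 WT + UNC, which is assumed to vary like the others and which, in island bins, correlated more with the Suv39h libraries than with its own line. Correlation is no test of a label, and the label was used as given. Setdb1 KO + UNC minus Setdb1 WT + UNC gave rises of at least 0.01 in 68 member bins (17.2%, beside 7.16% of all bins) and falls in 22 (5.56%, beside 5.79%). The limma fit called 22 of the 396 member bins (5.56%) and 448 of all 23972 bins (1.87%), 19 of the 22 with a higher score after SETDB1 loss and 3 with a lower one. Of the 22, 18 were above 0 in both KO libraries and below 0 in Setdb1 WT + UNC, and 16 of these were also below 0 in all 4 Suv39h libraries. On chromosome 9 lay 8 of the 22, from 27 member bins there, and 49 of all 1215 bins of that chromosome were called (4.03%). The share called was higher on chromosome 13 (122 of 1174 bins, 10.4%) and chromosome 18 (53 of 877, 6.04%).

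All of these calls went when Setdb1 WT was added to the fit (0 bins by limma, 2182 with p under 0.05 before adjustment), when the local score, the difference from the 6 flanking bins, replaced the score (0 and 1479) and without Setdb1 KO + UNC (0 and 2089). The median fitted difference over member bins was 0.00166 in the main fit (-0.000429 over all bins). It was 0.0017 with the local score (-0.000126) and 3.34e-05 with all 8 libraries (-0.000293). From Setdb1 WT + UNC to Setdb1 KO + UNC the local contrast rose by a median of 0.00243, in 161 islands (68.2%). The fitted differences without Setdb1 KO + UNC were 0.0357 for the Filip1 bin (0.0366 with it), 0.0266 for Plod2 (0.0242) and 0.0156 for Olfr835 (0.0257). Without Setdb1 KO 153 bins and 9 members were called. The KO libraries belong to the line that chose the islands, and over member bins their scores correlated with those of Setdb1 WT at 0.888 and 0.883. The share of members called is therefore not independent of the choice of islands. In 19 of the 22 called bins Setdb1 WT, which the rule holds above 0, lay above Setdb1 WT + UNC. The rule sets that order in the 18 rising calls where Setdb1 WT + UNC was below 0. In 15 of the rising calls both KO libraries lay above Setdb1 WT. These counts use the library that chose the islands and are descriptions only.

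In a check chosen after seeing the data, islands were chosen in Suv39h WT instead, which gave 198 islands of 337 bins. From Setdb1 WT + UNC to Setdb1 KO + UNC 63 of the 337 rose by at least 0.01 (18.7%, with 7.16% of all bins) and 18 fell (5.34%, with 5.79% of all bins). The limma fit called 10 of the 337 for SETDB1 loss (2.97%, beside 1.87% of all bins), 8 of them with a higher score. From Setdb1 WT to Setdb1 KO, which these islands leave free, 7 rose (2.08%, with 1.40% of all bins) and 3 fell (0.890%, with 0.880% of all bins), while the median change was -0.00103. From Setdb1 WT to Setdb1 WT + UNC 13 rose (3.86%, with 3.51% of all bins) and 44 fell (13.1%, with 4.62% of all bins). Of the 337 bins, 76.0% were above 0 in Setdb1 WT, so the set may share bins with the main islands, and that overlap was not counted. Effects of UNC0642 and of the single Setdb1 WT + UNC library cannot be told apart in these falls, and their cause was not tested.

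The islands with the largest differences in that comparison were on chromosomes 9 and 13. Filip1, Myo6, an unconventional myosin, and Senp6, a SUMO protease, shared chr9:80000001-80200000, with means of 0.0106 (WT), -0.0107 (WT + UNC), 0.018 (KO) and 0.0205 (KO + UNC) in the Setdb1 line. The Suv39h lines had -0.0077 (WT), -0.00895 (WT + UNC), -0.00979 (DKO) and -0.00986 (DKO + UNC). The bin at chr9:80000001-80100000 had a fitted difference of 0.0366 ± 0.00356 (SE; limma adjusted p = 0.00479). The local contrast of the whole island was above 0 in every library, from 0.0185 to 0.0442, also where its sign was that of B.

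Ell2, an elongation factor of RNA polymerase II, marked the bin at chr13:75700001-75800000. It had 0.00602 (WT), -0.0101 (WT + UNC), 0.0167 (KO) and 0.0237 (KO + UNC) in the Setdb1 line, and -0.00506 (WT), -0.00424 (WT + UNC), -0.00305 (DKO) and -0.000991 (DKO + UNC) in the Suv39h lines. The fitted difference was 0.032 ± 0.00357 (limma adjusted p = 0.00827). At chr9:4800001-5000000, which has no coding gene, both bins were called (limma adjusted p = 0.00479 and 0.0124), and the bins of Plod2 (adjusted p = 0.0222) and Olfr835 (adjusted p = 0.0446) were called by limma in the same direction.

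Lower scores after SETDB1 loss were called in 2 islands. Ice1, a subunit of the little elongation complex, lay at chr13:70600001-70700000 with 0.00243 (WT), 0.0205 (WT + UNC), -0.00233 (KO) and -0.00502 (KO + UNC) in the Setdb1 line. The Suv39h lines had 0.00867 (WT), 0.0173 (WT + UNC), 0.0209 (DKO) and 0.0286 (DKO + UNC). Its fitted difference was -0.0219 ± 0.00425 (limma adjusted p = 0.0397), and -0.00262 with the local score, where it was not called. Ndrg1, a stress-responsive gene, lay at chr15:66900001-67100000 with 0.00362 (WT), 0.0143 (WT + UNC), -0.00812 (KO) and -0.00631 (KO + UNC) in the Setdb1 line and 0.00165 to 0.00531 in the Suv39h lines. Its 2 bins had limma adjusted p-values of 0.0178 and 0.0254. With the local score the fitted differences were 0.0267 for the Filip1 bin, 0.0126 for Ell2, 0.0152 for Plod2, 0.0106 for Olfr835, 0.0184 for the gene-free bin at chr9:4800001-4900000 and -0.00842 for Ndrg1. With all 8 libraries they were 0.0127 for Plod2, 0.016 for Olfr835, 0.0219 for the Filip1 bin, 0.0222 for Ell2, 0.0238 for the gene-free bin, -0.0187 for Ndrg1 and -0.0151 for Ice1. That fit adds Setdb1 WT, which the rule holds above 0 in these bins, to the arm without deletion, so its values are not free of the selection. None of these bins was called in either fit. In both the Ice1 and the Ndrg1 islands the KO libraries were the only ones with a mean below 0.

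Pax6, a transcription factor of eye and neural development that is not expressed in stem cells, sat in a 1-bin island at chr2:105600001-105700000 close to the threshold in every library. Its score was 0.00282 in Setdb1 WT, 0.0013 in Setdb1 KO and between -0.00615 and -0.000769 in the other 6. Its local contrast was 0.00909 to 0.0155. The islands of Herpud2 (4.71e-05) and Gnai1 (7.36e-05), the 2 with the lowest mean in Setdb1 WT, were below 0 in all 7 other libraries.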

How the data were processed

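Hi-C was done by the authors in 8 groups of mouse embryonic stem cells. By the study's methods, reads were aligned to mm10 with the 4DN Hi-C pipeline (version 43), contacts with a mapping quality above 10 were kept, and Juicer gave the eigenvector of each autosome in 100-kb bins. The deposited compartment score is that eigenvector, centred on 0 per chromosome, with positive values for A. The methods state that Hi-C was repeated, but each group has 1 file here, so groups have no replicate spread.

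Islands were found as adjacent bins, and a missing bin ended a run or a flank. The members and gene lists were chosen with earlier results of these data known. Per-bin contrasts used limma (3.58.1, R 4.3.3) on the 7 libraries other than Setdb1 WT, background as a block and UNC0642 as a term, with Benjamini-Hochberg adjustment over 23972 bins. Changes of 0.01 were counted per pair of libraries. Wilson and order-statistic intervals (95%) treat bins or islands as independent, which neighbours are not. Genes came from GENCODE vM21, bases and promoters from RefSeq GRCm38.p6, with all 24005 bins inside its chromosomes. Named islands were the 5 highest and 5 lowest over the 7 libraries, the extremes in Setdb1 WT, and up to 2 per gene list. Also named were the 2 largest rises and falls per factor among islands moving alike in every pair, of which SETDB1 had 1. The code was checked on simulated data.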

Additional observations from a re-analysis of the deposited data

Results flagged for a closer look

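Loss of SUV39H1 and SUV39H2 went with small changes of opposite sign in untreated cells and under UNC0642. The share of island bins above 0 differed by -0.505 percentage points between Suv39h DKO and Suv39h WT and by 0.505 percentage points between Suv39h DKO + UNC and Suv39h WT + UNC. The signs depended on centring over the same 396 bins. With the mean that centring removed added back, the shares went from 88.1% to 88.6% without and from 86.1% to 90.7% with UNC0642, and with it subtracted once more from 42.7% to 47.7% and from 45.2% to 44.4%. The median change of the local contrast was 2.82e-05 without and -0.000246 with UNC0642. Each value compares 1 library with 1, and the difference between them was not tested.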

How the results depend on the processing

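Of 253 alternative values, 164 stayed within the reported range, on the same side of the threshold or, for counts, within 1.5 times. Such a total can hide a turn in direction, and it holds alternatives that could not differ. Setdb1 WT + UNC has no partner in the fit, so leaving it out left the UNC0642 and SUV39H1/2 fits unchanged. Leaving out either library of a pair gave the same UNC0642 fit. The 236 islands became 154 with 5 flanking bins and 44 at a score threshold of 0.005. That threshold raised the share of island bins above 0 to 85.7% (WT + UNC), 94.8% (KO) and 94.8% (KO + UNC) in the Setdb1 line and to 81.8% (WT), 85.7% (WT + UNC), 76.6% (DKO) and 81.8% (DKO + UNC) in the Suv39h lines. With 5 flanking bins it was 76.0% in Suv39h WT and 87.4% in Setdb1 KO + UNC. With runs of up to 5 bins it was 79.0% in Setdb1 WT + UNC, and 77.5% (WT), 79.8% (WT + UNC), 77.7% (DKO) and 81.1% (DKO + UNC) in the Suv39h lines. The centring of a chromosome removed a mean that can be worked out if the eigenvector had unit length before it. With this implied mean subtracted once more and islands chosen anew, the share was 69.5% in Suv39h DKO + UNC. Over the same 396 bins (added after seeing the data), adding it back gave 89.9% (WT + UNC), 96.5% (KO) and 97.5% (KO + UNC) in the Setdb1 line and 88.1% (WT), 86.1% (WT + UNC), 88.6% (DKO) and 90.7% (DKO + UNC) in the Suv39h lines. Subtracting it gave 42.7%, 48.2% and 51.8%, and 42.7%, 45.2%, 47.7% and 44.4%, in the same order. With islands chosen in Suv39h WT the share was 72.1% (KO) and 78.3% (KO + UNC) in the Setdb1 line and 78.9% (WT + UNC), 77.4% (DKO) and 81.0% (DKO + UNC) in the Suv39h lines, so the higher share of the Setdb1 KO library over the Suv39h libraries was turned.

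The median local contrast at the 0.005 threshold was 0.0263 (WT + UNC), 0.0265 (KO) and 0.0282 (KO + UNC) in the Setdb1 line and 0.0268 (WT), 0.0269 (WT + UNC), 0.025 (DKO) and 0.0238 (DKO + UNC) in the Suv39h lines. At that threshold Suv39h WT and Suv39h WT + UNC thus lay above Setdb1 WT + UNC and Setdb1 KO. It was 0.0186 in Setdb1 KO with 5 flanking bins, and 0.018 in Suv39h DKO + UNC and 0.0181 in Suv39h WT + UNC for islands chosen in Suv39h WT. Member bins that moved by 0.02 were 0, 0 and 1 for UNC0642 in Setdb1 KO, Suv39h WT and Suv39h DKO, 0 and 2 for SUV39H1/2 loss without and with UNC0642, and 14 for Setdb1 KO + UNC minus Setdb1 WT + UNC. With the implied mean subtracted once more, rises and falls of 0.01 turned from 10 and 4 to 7 and 14 for UNC0642 in Suv39h DKO and from 19 and 13 to 11 and 24 for SUV39H1/2 loss under UNC0642. For UNC0642 in Suv39h DKO, 24 member bins moved by 0.01 with the implied mean added back, and 26 in islands chosen in Suv39h WT (added after seeing the data).

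For SETDB1 loss, the 448 called bins and 22 called members became 0 and 0 with all 8 libraries and 0 and 0 with the local score, and 10 members were called in islands chosen in Suv39h WT (added after seeing the data). Leaving out 1 library gave 0 to 648 bins and 0 to 29 members, and without Setdb1 WT + UNC the contrast cannot be estimated. For SUV39H1/2 loss it gave 0 to 1 bins. UNC0642 had 0 calls under every alternative run, some of which are the same fit. Island bins with any annotated gene start were 85.9% (70.0% of flanking bins), and 90.4% (61.1%) overlapped a coding gene body. The cause of these differences was not tested. The files give no depth per bin, so the error of scores near 0 was not estimated.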
